A study of Mus musculus with 18 samples.

Results

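The mouse p200 family (also called PYHIN genes) and its relative Aim2 were followed in macrophages of mice with PPARg, a nuclear receptor that senses lipids, in its wild-type (WT) or its T166A form, in which an alanine stands in place of a threonine. The 9 genes, Ifi203, Ifi204, Ifi205, Ifi207, Ifi209, Ifi211, Ifi213, Mndal and Aim2, were chosen by symbol from the 26165 genes of the bone marrow table and the 26149 genes of the skin table, and they were chosen because Ifi203 was higher in T166A bone marrow-derived macrophages. Values of the marrow comparison between genotypes are therefore given as a description. All 9 genes passed the filter on low counts in both tables. Bone marrow-derived macrophages (BMDM) came from C57BL/6J or PPARg T166A mice, were grown for 7 days with the growth factor M-CSF at 50 ng/ml, and gave 3 libraries per genotype, of which replicates 1 and 2 were labelled batch B1 and replicate 3 batch B2. Cells bound by beads against the macrophage surface protein F4/80 came from injured dorsal skin of WT or PPARg T166A mice, 6 days after injury, and gave 6 libraries per genotype with no batch label. The skin labels name no strain. All libraries were made from total RNA, and the extraction protocol speaks of adipocytes, whereas the label of each library names macrophages. The labels do not say whether replicates are separate animals or cultures, so each p-value speaks only for the spread among these libraries, which may be technical.

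Proteins of the p200 family bind DNA through a HIN domain, and most also carry a pyrin domain through which they join other pyrin proteins. Aim2 binds double-stranded DNA in the cytosol and, through the adaptor Pycard, activates caspase-1 in an inflammasome, which matures interleukin-1β and opens gasdermin D pores. Many genes of the family are induced by interferons in macrophages, and Ifi204 is known as a nuclear and cytosolic DNA sensor that acts with the adaptor STING. In mice the family forms 1 gene cluster, and its members arose by duplication.

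The 9 genes lie at chr1:173350879-174031810 of GRCm38 (mm10), a span of 681 kb, with Aim2 (chr1:173350879-173466040) at one end and Ifi205 (chr1:174011998-174031810) at the other. Aim2 and Ifi209 are on the plus strand and the other 7 on the minus strand. The annotated Mndal gene (chr1:173849126-173942491) spans Ifi211 and most of Ifi203 (chr1:173920407-173942672) on the same strand. The promoter sequences, taken from RefSeq (GRCm38.p6) as 250 bases before to 50 bases after each annotated start, were searched on both strands for GAAANNGAA, the core of the interferon-stimulated response element, and for TTCNNNGAA, the gamma-activated site. Of the 9 genes, 8 were in the table, and Ifi204 was named in no row. GAAANNGAA was found for 6 of these 8 genes, namely Ifi203, Ifi205, Ifi207, Ifi211, Ifi213 and Mndal, against 9.76% of all 27025 genes and 8.56% of all 32851 promoters. No match stood in the windows of Aim2 and Ifi209. TTCNNNGAA was found for 0 of the 8, against 9.55% of all genes.

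The stretches around a match upstream of the start, 1 per gene, are shown because they are near-copies of each other. The capitals mark GAAANNGAA, and each line runs 5′ to 3′ on the minus strand, with the match starting 35 bases before the annotated start in Ifi203 (chr1:173942503-173942543), 36 in Mndal (chr1:173880199-173880239), 41 in Ifi207 (chr1:173741826-173741866), 73 in Ifi213 (chr1:173599321-173599361), 37 in Ifi211 (chr1:173913059-173913099) and 134 in Ifi205 (chr1:174031865-174031905).
Ifi203: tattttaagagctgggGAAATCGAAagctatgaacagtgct
Mndal: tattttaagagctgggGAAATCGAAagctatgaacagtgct
Ifi207: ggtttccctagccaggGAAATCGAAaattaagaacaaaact
Ifi213: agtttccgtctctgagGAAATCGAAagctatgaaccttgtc
Ifi211: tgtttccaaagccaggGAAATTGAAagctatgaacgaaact
Ifi205: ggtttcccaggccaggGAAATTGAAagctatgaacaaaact
The Ifi203 and Mndal stretches are identical over all 41 bases. The exact word GAAATCGAA, picked after these promoters had been read, stood in the promoters of 4 of the 8 genes and in those of 3 of the 4 other family genes (Ifi206, Ifi208 and Ifi214), against 0.111% of all genes. Ifi205 held a second match, on the opposite strand and 24 bases after the start. Ifi203 and Mndal each have a second annotated promoter, and that of Mndal also held a match on the opposite strand, 53 bases before its start. A match describes the letters of the window and is not a measured binding site.

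Copies of this kind share reads. Of the 100-base windows of the reference transcript, 56.9% in Ifi211, 41.5% in Ifi205, 17.9% in Ifi209 and 16.8% in Ifi204 also occurred in a transcript of another gene. For Ifi205 the partner was Ifi211, with 41.5% of its windows, and for Ifi209 it was Ifi214. The share was 7.63% in Mndal, 6.12% in Ifi213, 4.09% in Ifi203 and 0.813% in Ifi207, and Aim2 shared none. The length of the reads is not known from the sources used here, and with windows of 75 bases the shares were higher, at 63.6% in Ifi211, 45.2% in Ifi205, 24.3% in Ifi209, 20.7% in Ifi204, 14.4% in Ifi213, 13.9% in Mndal, 9.83% in Ifi203 and 2.84% in Ifi207, with 0 again in Aim2. The Ifi203 windows of 100 bases were shared with a pseudogene, Ifi203-ps. The sources used here do not give the counting of reads that map to several places, so counts of Ifi205 and Ifi211 are uncertain, and Aim2, Ifi207 and Ifi203 share the fewest windows at both lengths.

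The unit of level is CPM, the count of a gene divided by all gene counts of its library and scaled to 1000000. Libraries held 40072513 to 44152639 gene counts in BMDM and 29357354 to 38774475 in skin. Summed macrophage markers (Adgre1, Csf1r, Cd68, Lyz2, Mertk and Fcgr1) reached 28224 to 42024 CPM in BMDM and 6893 to 9069 CPM in skin. Fibroblast markers summed to 4.02 to 33.8 CPM in 5 BMDM libraries and to 422 CPM in T166A replicate 3. They summed to 5841 to 11022 CPM in skin. In bulk libraries fewer cells of a type and less RNA per cell cannot be told apart.

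In BMDM, the members other than Aim2 were higher in each T166A library than in each WT library, by 1.72-fold (Ifi204) to 2.89-fold (Ifi213), while Aim2 itself overlapped between the genotypes. Such separation held for 7.99% of the 13139 genes tested. Summed over the 9 genes, the level was 359 to 406 CPM in WT libraries (376 ± 26.1, SD, n = 3) and 699 to 788 CPM in T166A libraries (743 ± 44.1, n = 3). The sum is made of these same genes, so its separation is not a further result.

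Ifi203, the gene the family was chosen for, was at 30.9, 25.2 and 26.4 CPM in the 3 WT libraries and at 73.4, 79.5 and 52.3 CPM in the 3 T166A libraries. Both T166A libraries of batch B1 were above the B2 one, and all 3 stood clear of WT. The log2 fold change (T166A over WT, edgeR with batch in the fit) was 1.27 (SE 0.16), 1.45 in B1 and 0.99 in B2. The labels do not say whether replicate numbers pair the BMDM libraries. With the number as a block in place of batch the log2 fold change was again 1.27, but Ifi203 no longer passed.

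Ifi207, which encodes a long p200 protein, was steady in WT at 89.7, 85.7 and 85.8 CPM and stood at 228, 212 and 132 CPM in T166A. As for Ifi203, the B2 library was the lowest of the T166A libraries. Its log2 fold change was 1.06 (SE 0.17), 1.33 in B1 and 0.62 in B2.

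Mndal, named for its likeness to the human myeloid nuclear antigen MNDA, held 56.4, 53.4 and 55.8 CPM in WT and 99.3, 107 and 109 CPM in T166A. Its spread within each genotype was small and both batches gave a similar difference, 0.91 in B1 and 0.96 in B2 on the log2 scale. The fitted log2 fold change was 0.89 (SE 0.12).

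Ifi204, the DNA sensor, was at 106, 102 and 135 CPM in WT and at 176, 184 and 247 CPM in T166A. Here the B2 library was the highest in each genotype, the reverse of Ifi203 and Ifi207 in T166A. The log2 fold change was 0.78 (SE 0.11).

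Ifi213 had the largest fitted difference, 1.53 (SE 0.28) on the log2 scale, at a low level: 7.15, 3.93 and 9.11 CPM in WT against 20.5, 19.1 and 18.3 CPM in T166A. The T166A libraries were close together and the WT libraries were not. Ifi205 was the least abundant member, at 1.59 to 2.45 CPM in WT and 2.88 to 5.21 CPM in T166A (log2 fold change 1.10, SE 0.33). Ifi209 and Ifi211 had log2 fold changes of 1.05 (SE 0.23) and 0.84 (SE 0.16).

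Aim2 was at 12.8, 14.4 and 13.2 CPM in WT and at 15.6, 19.1 and 11.2 CPM in T166A. The T166A libraries lay on both sides of the WT range, and the batches differed in sign, 0.35 in B1 and -0.24 in B2 on the log2 scale. The fitted log2 fold change was 0.12 (SE 0.21).

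**Figure D1:**
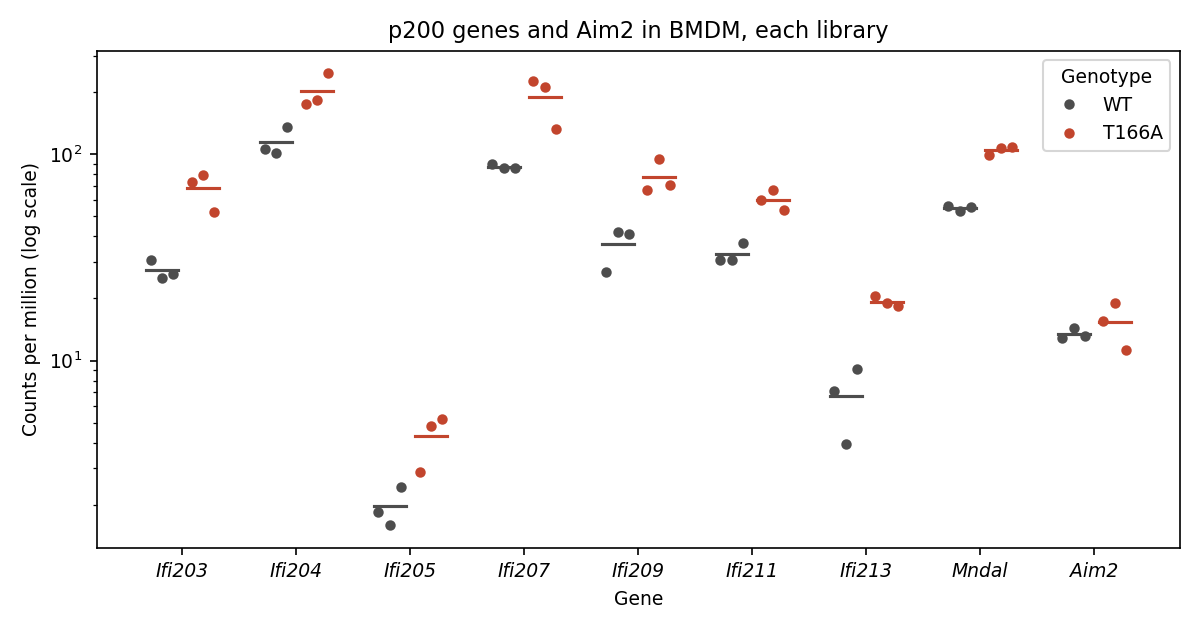
CPM (log axis) of the 9 genes in each BMDM library, WT in grey and T166A in red, with a line at each mean (n = 3 per genotype). The red points lie above the grey ones for each gene except Aim2, whose T166A libraries run from 11.2 to 19.1 CPM around WT values of 12.8 to 14.4 CPM.

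At an adjusted p of 0.05 (quasi-likelihood F test of edgeR, Benjamini-Hochberg over all genes), 1 of the 9 (Ifi203) was called higher and 0 lower in T166A BMDM, where 0.0609% of the 13139 genes tested were higher and 0.00761% lower. Separation of all T166A libraries above all WT libraries held for 8 of 9 members and for 7.99% of genes tested, and DESeq2 called 7 of 9 higher, where it called 1.93% of genes. Since this contrast chose the family, nothing is read from these counts. The median log2 fold change was 1.05 over the members and -0.02 over all genes tested. Without T166A replicate 3, 2 members were called, Ifi203 at a log2 fold change of 1.45 and Ifi207 at 1.33. That library had the high fibroblast markers and is also the only T166A library of batch B2, so the genotypes are then compared within batch B1 only. Batch B1 alone gave the same log2 fold changes, and so did leaving out WT replicate 3. Leaving out any of the other 5 BMDM libraries ended all calls of members. The part of the other cells in these values was not tested.

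Of the other family genes, Ifi206 and Ifi208 were also separated in BMDM, with log2 fold changes of 1.90 (SE 0.28) and 1.56 (SE 0.22). Over all genes tested, 7.99% were separated in this direction. Ifi206 was at 4.87, 5.60 and 7.89 CPM in WT and 28.9, 23.4 and 17.7 CPM in T166A. Ifi214 had 2, 0 and 0 counts in WT and 29, 43 and 14 counts in T166A, and it shares windows with Ifi209. Ifi202b, which encodes a p200 protein without a pyrin domain that is known to bind DNA in competition with Aim2, had 0, 4 and 0 counts in WT and 4, 0 and 253 counts in T166A. The 253 counts were all in T166A replicate 3, and the gene did not pass the filter in BMDM.

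In skin wound cells the members had no shared direction: 5 of the 9 log2 fold changes were above 0 and 4 below, from -0.21 (Ifi207) to 0.42 (Ifi209). Over all genes tested, 51.6% were above 0. By edgeR's test, 1 member rose (Ifi209, where 12.7% of the 15473 genes tested were higher) and 1 fell (Ifi207, where 13.2% were lower). Together that is 2 of 9 members, or 22.2%, against 25.9% of all genes, a share near the background and so not a result about the family. No member separated the 12 libraries by genotype. Of all genes tested, 8.83% had each T166A library above each WT library and 4.08% had each below, in CPM not scaled for library composition. With 9 members and shares this small, the lack of separation is not a result about the family. The median log2 fold change was 0.07 over the members and 0.01 over all genes tested. Whether the BMDM and skin differences themselves differ was not tested, because the BMDM contrast chose the members.

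**Figure D2:**
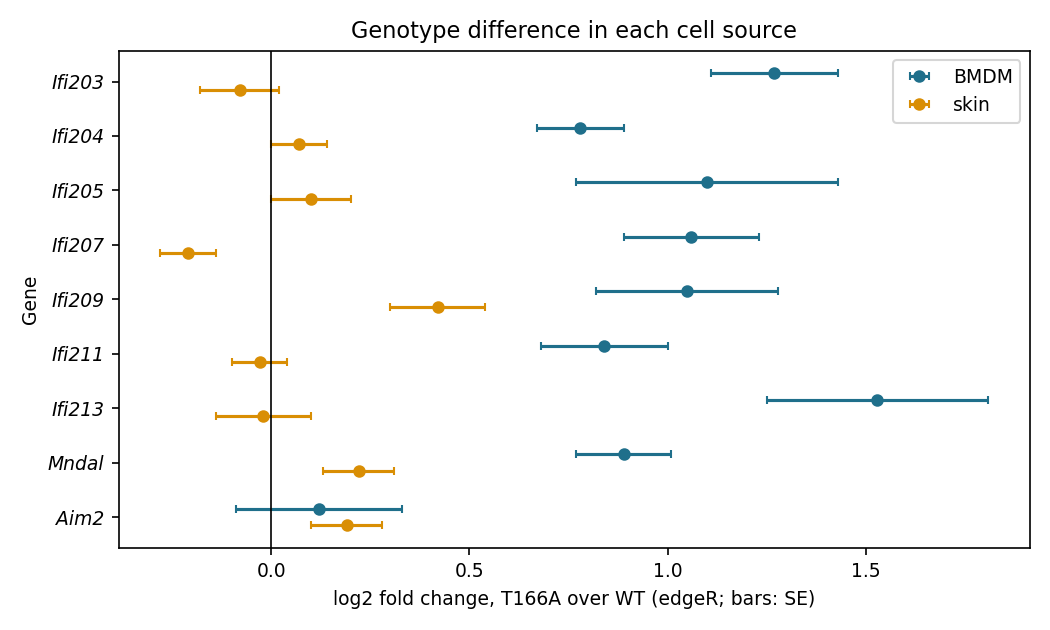
Fitted log2 fold change of T166A over WT (points) with its SE (bars) for the 9 genes in BMDM and in skin. In BMDM the values run from 0.12 (Aim2) to 1.53 (Ifi213), and in skin they run from -0.21 (Ifi207) to 0.42 (Ifi209).

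Ifi209 ranged from 166.1 to 281 CPM in WT skin libraries (median 226, n = 6) and from 265 to 350 CPM in T166A (median 329, n = 6). All 6 T166A libraries were above the WT median, and the ranges met only at the top of WT and the bottom of T166A. The log2 fold change was 0.42 (SE 0.12, edgeR adjusted p = 0.0264). The call was kept without 7 of the 12 libraries in turn and was lost when WT replicate 4, WT replicate 5, T166A replicate 1, T166A replicate 3 or T166A replicate 6 was left out, with an edgeR adjusted p of 0.006 to 0.0549 over the 12 fits.

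Ifi207 ranged from 476 to 658 CPM in WT (median 590) and from 477 to 574 CPM in T166A (median 540). The T166A range lay inside the WT range, with all 6 T166A libraries below the WT median. Its log2 fold change was -0.21 (SE 0.07, edgeR adjusted p = 0.0441). It passed without WT replicate 2 or 5 and missed the threshold without each of the other 10 libraries (edgeR adjusted p of 0.00177 to 0.115 over the 12 fits). At the same fold it also missed the threshold with no filter on low counts (edgeR adjusted p = 0.0582) and with transcripts summed (0.0607).

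Ifi203 was at 618 to 840 CPM in WT (median 743) and 638 to 885 CPM in T166A (median 698). The genotypes covered nearly the same range, and the log2 fold change was -0.08 (SE 0.10, edgeR adjusted p = 0.597). Mndal was at 195 to 265 CPM in WT (median 245) and 257 to 336 CPM in T166A (median 293). Its 6 T166A libraries were above the WT median, but the log2 fold change of 0.22 (SE 0.09) did not pass (edgeR adjusted p = 0.102). With the replicate number as a block Mndal did pass (edgeR adjusted p = 0.000714).

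Aim2 was at 12.1 to 15.9 CPM in WT (median 14.1) and 15.5 to 19.6 CPM in T166A (median 16.7). The ranges overlapped by a narrow margin, and the log2 fold change of 0.19 (SE 0.09) did not pass (edgeR adjusted p = 0.117). Ifi204, Ifi205, Ifi211 and Ifi213 had log2 fold changes of -0.03 to 0.10, with edgeR adjusted p-values of 0.509 to 0.907. In skin the plain CPM difference between genotypes exceeds the fitted one by 0.086 on the log2 scale in the median gene, because TMM scaling allows for library composition, so CPM means lie higher on the T166A side than the fit.

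**Figure D3:**
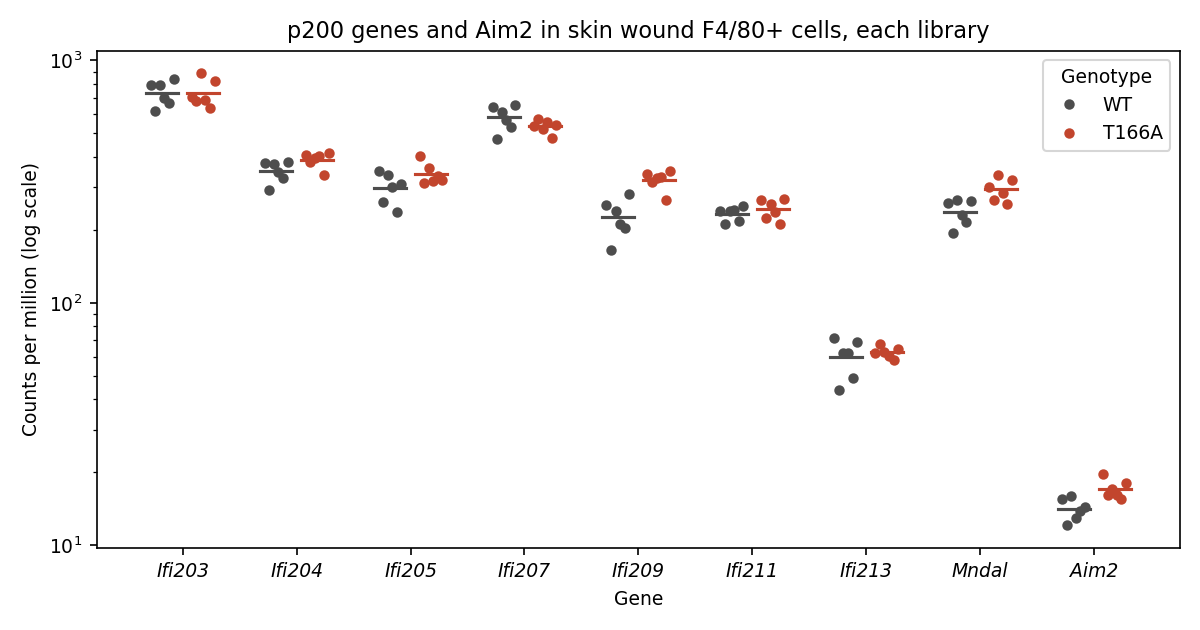
CPM (log axis) of the 9 genes in each skin wound library, WT in grey and T166A in red, with a line at each mean (n = 6 per genotype). The genotypes overlap for all 9 genes, with Ifi209 the most shifted, from 166.1 to 281 CPM in WT to 265 to 350 CPM in T166A.

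Among the other family genes in skin, Ifi202b fell slightly, from 126 ± 10.3 to 119 ± 9.67 CPM (log2 fold change -0.16, SE 0.06, edgeR adjusted p = 0.0484, n = 6 per genotype). Ifi206, Ifi208 and Ifi214 had log2 fold changes of 0.21, 0.33 and 0.33 and did not pass. The skin genotypes also differed in other markers. Summed adipocyte markers (Adipoq, Plin1, Cidec and Lep) were at 2.58 to 6.34 CPM in WT and 19.9 to 42.4 CPM in T166A, and summed macrophage markers at 7589 to 9069 CPM in WT and 6893 to 7470 CPM in T166A, with 4 of 6 macrophage markers lower. Endothelial markers summed to 684 to 970 CPM in WT and 943 to 1324 CPM in T166A (2 of 3 higher), dendritic cell markers to 23.6 to 31.0 and 28.1 to 37.5 CPM (1 of 5 higher, 1 lower), and neutrophil markers to 28.6 to 101 and 30.1 to 44.7 CPM (2 of 3 tested lower). Plasmacytoid dendritic cell markers, of a cell type known for interferon production, summed to 7.03 to 10.1 CPM in WT and 9.90 to 11.8 CPM in T166A, with 0 called. Of the B cell, keratinocyte and monocyte markers 1 each was lower, and of the fibroblast and osteoclast markers 0 were called. The T and NK cell markers did not pass the filter in skin. In BMDM 0 markers of any of the 12 cell types were called, and the adipocyte markers were at 0 in all 6 libraries. The part of these shifts in the values of Ifi209 and Ifi207 was not tested.

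WT replicate 2 was the lowest of the 6 WT skin libraries for each member but Ifi205. The sum over the 9 genes was 2275 to 3069 CPM in WT and 2594 to 3160 CPM in T166A. Within genotypes the members moved together: after removal of genotype means from log2 CPM, the Pearson correlation over the 12 skin libraries was 0.52 to 0.97 over the 36 pairs of members, with a median of 0.74. It was highest for Ifi204 with Ifi209 (0.97) and was 0.96 for Ifi203 with Mndal. The points share libraries, depth and in part reads, so these values are a description.

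The genes most like the mean of the members, among 10209 genes of at least 5 CPM, were Gm4951 (0.975), the helicase gene Ddx60 (0.967), the checkpoint ligand gene Cd274 (0.964), Trim30a (0.959) and the oligoadenylate synthetase gene Oas2 (0.957). Without the 2 libraries farthest from the median of the members, WT replicate 2 and T166A replicate 5, the correlations were 0.923 to 0.951. Among the genes most like Ifi203 alone were Tiparp and Ppp1r15b (both 0.951), Iqgap2 (0.934) and Cd274 (0.925), and Cd274 stood on both lists.

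To compare genes, levels were divided by transcript length. In WT BMDM the order was Ifi204 (49.9 ± 7.84 CPM per kb, n = 3), Mndal (27.3 ± 0.779), Ifi207 (25.4 ± 0.659), Ifi211 (18.4 ± 2.06), Ifi209 (10.7 ± 2.46), Ifi203 (9.0 ± 0.989), Aim2 (4.74 ± 0.279), Ifi213 (2.18 ± 0.846) and Ifi205 (1.22 ± 0.271). In this order the libraries of neighbours overlapped for Ifi209 with Ifi203 and for Ifi213 with Ifi205, and for no other pair. In T166A BMDM, Ifi207 (55.8 ± 15.1 CPM per kb) overlapped with Mndal (51.8 ± 2.45), Ifi209 (22.7 ± 4.43) with Ifi203 (22.4 ± 4.67), and Ifi213 (6.24 ± 0.368) with Aim2 (5.39 ± 1.40). Ifi213 is counted on a noncoding transcript model, the one with the highest counts of its 6 listed models.

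In WT skin cells the order was led by Ifi203 (240 ± 28.2 CPM per kb, n = 6), followed by Ifi205 (185 ± 27.0), Ifi207 (170 ± 20.2), Ifi204 (152 ± 15.1), Ifi211 (131 ± 8.73) and Mndal (118 ± 14.3), each overlapping with the next. Ifi209 (65.7 ± 11.8), Ifi213 (19.3 ± 3.62) and Aim2 (4.97 ± 0.515) were lower, without overlap among themselves. In T166A skin cells Ifi203 (241 ± 31.3 CPM per kb) again led, overlapping with Ifi205 (212 ± 21.6), and Aim2 (6.02 ± 0.532) was again the lowest of the 9. Ifi205 thus went from the last place of the 9 in BMDM to the second in skin, and Aim2 stayed near 5 CPM per kb in the WT libraries of both sources. The sources differ in culture, tissue and preparation and were not tested against each other.

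**Figure D4:**
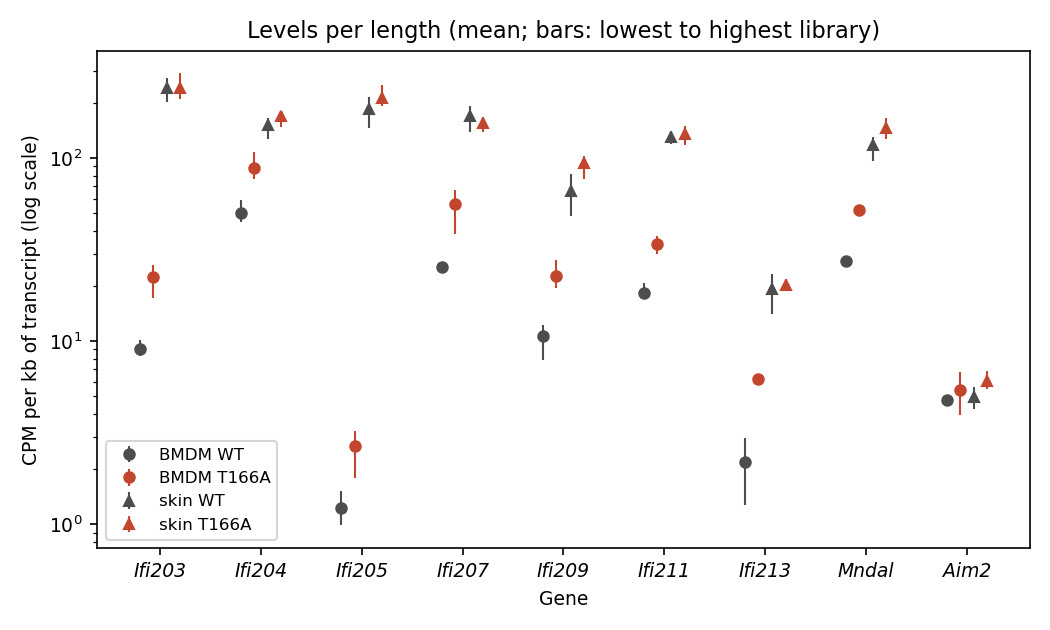
Mean CPM per kb of transcript (log axis) of the 9 genes in the 4 groups, with bars from the lowest to the highest library (n = 3 in BMDM, n = 6 in skin). Each gene but Aim2 is higher in the skin groups than in the BMDM groups, and Aim2 lies between 4.74 and 6.02 CPM per kb in all 4.

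Ifi203 is listed as 3 transcripts, and the one with the highest counts holds an exon of 1242 bases (chr1:173928275-173929516, exon 7 of 10, GENCODE model, coding) that the others lack. This exon is part of the 3054 bases of the model, and the models without it are longer, at 3605 and 3482 bases. Reads in shared exons count for each model, so the highest count does not make it the main form. With it the model encodes 871 residues, and without it 457 or 409. The junction is shown because it marks where the models part: the last 30 bases of the exon before it (chr1:173933783-173933812, minus strand) are in lower case and the first 90 bases of the large exon (chr1:173929427-173929516, minus strand) in capitals.
Ifi203 junction: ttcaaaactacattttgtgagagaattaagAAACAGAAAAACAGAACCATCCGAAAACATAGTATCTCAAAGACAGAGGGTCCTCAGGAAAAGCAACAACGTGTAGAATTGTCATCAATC
The count of the transcript with the large exon, minus that of the 3605-base one, was taken as a share of the former. This share was 12.3, 2.70 and 4.17% in the 3 WT BMDM libraries and 13.1, 6.63 and 2.53% in the 3 T166A ones. Replicate 1 was the highest in each genotype. In skin the share was 26.5 to 29.1% in WT (median 28.4%) and 26.2 to 30.2% in T166A (median 27.8%). The skin libraries were all above the BMDM libraries, and the genotypes overlapped in both sources. The share is net, since the other models hold bases that the transcript with the large exon lacks. It therefore does not measure the exon alone. Of the exon's 75-base windows, 15.9% also occur in Ifi203-ps.

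**Figure D5:**
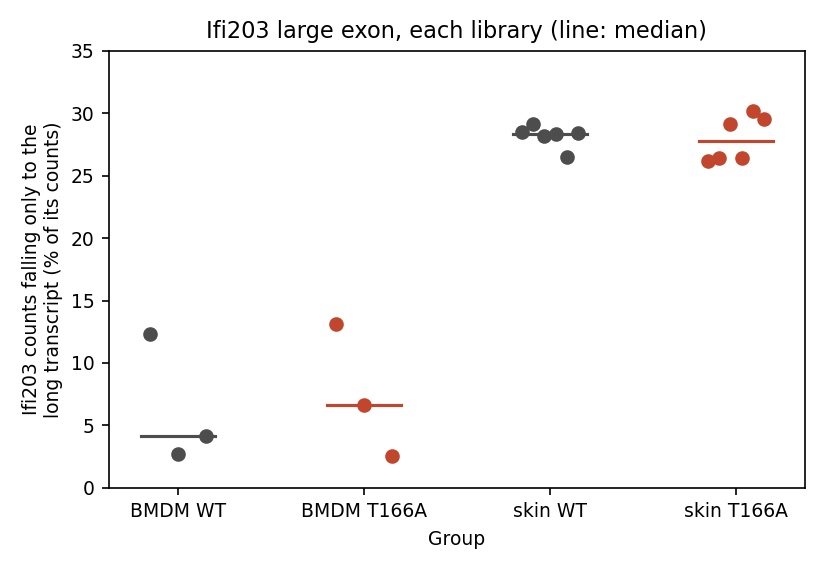
Ifi203 count of the transcript with the large exon minus that of the 3605-base transcript, as a share (%) of the former. Each point is a library, with a line at each median, by group (n = 3 in BMDM, n = 6 in skin). The axis calls the transcript with the exon long, and the difference is net, since each transcript holds bases that the other lacks. The shares are 2.53 to 13.1% in BMDM and 26.2 to 30.2% in skin, with overlap between genotypes in each.

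Lists of the surrounding pathway were read from the same fits, in which 12.7% of all skin genes tested were called higher, 13.2% lower and 25.9% in either direction. Of 18 genes of inflammasomes and pyroptosis, 2 rose (Gbp2 and Gbp5) and 4 fell (Nlrp3, Nlrc4, Casp4 and Ninj1) in T166A skin cells, with a median log2 fold change of -0.13. This count and those of the lists that follow were not tested against the shares over all genes and are not read as results about the lists. Nlrp3, the sensor of another inflammasome, fell from 584 ± 21.2 to 355 ± 18.7 CPM (log2 fold change -0.80, SE 0.05, edgeR adjusted p = 1.25e-10, n = 6 per genotype). Gbp2, an interferon-induced guanylate-binding protein, rose from 141 ± 14.1 to 185 ± 12.8 CPM (log2 fold change 0.31, SE 0.06, edgeR adjusted p = 0.000695). The Aim2 partners did not pass: the values were -0.22 (SE 0.11) for the adaptor Pycard, 0.09 (SE 0.08) for Casp1 and -0.13 (SE 0.06) for Il1b on the log2 scale, with adjusted p-values by edgeR of 0.143, 0.419 and 0.124. Of these, Pycard and Casp1 were picked with their values in view.

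Of 20 genes of DNA sensing, 4 fell in skin (Tlr9, Enpp1, Tbk1 and Ikbke) and 0 rose, with a median of -0.02. Tlr9, an endosomal DNA receptor, fell from 221 ± 16.7 to 171 ± 16.3 CPM (log2 fold change -0.46, SE 0.07). Irf7 and Samhd1, the most abundant of this list, had log2 fold changes of -0.14 and -0.06 in skin and did not pass. In BMDM, Irf7 was at 244 to 372 CPM in WT and 483 to 700 CPM in T166A (log2 fold change 0.85, SE 0.19). Samhd1 overlapped between the genotypes there (0.43, SE 0.16). Of 14 tested genes of interferon receptor signalling, Ifngr1 rose and Ifngr2, Irf8 and Spi1 fell, with a median of -0.03. Irf8, a transcription factor of the myeloid lineage, fell from 190 ± 15.2 to 115 ± 13.9 CPM (log2 fold change -0.82, SE 0.08, edgeR adjusted p = 1.51e-06), and Jak1 had a log2 fold change of -0.10 and did not pass. In BMDM, no gene of these 3 lists was called, and their median log2 fold changes were -0.00, 0.16 and 0.05.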

How the data were processed

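RNA sequencing of 18 mouse libraries was analysed from 2 tables of raw counts per RefSeq transcript that the authors deposited. The submitters' processing notes name cutadapt 4.4, FastQC 0.12.1, featureCounts (no version) and HISAT2 2.2.1, with mm10. Settings for strand and multi-mapping reads are not given in the sources used. Reads in shared exons had been counted for each isoform, so 1 row was kept per gene, that of the transcript with the largest CPM summed over libraries. Of 45895 and 45843 transcripts, 117 in each table matched no gene (0.514% and 0.187% of counts) and were left out. The members and lists were chosen with earlier results of these data known.

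Genotypes were compared within each table in R 4.3.3 with edgeR 4.0.16 (TMM, filterByExpr with a minimum count of 10 and total of 15, robust quasi-likelihood F test, Benjamini-Hochberg over all genes, threshold 0.05), with batch in BMDM. DESeq2 1.42.0 and voom in limma 3.58.1 were alternatives. On simulated counts the skin fit recovered 95% of 2-fold and 100% of 4-fold changes among 15313 genes, and the BMDM fit 60% and 93% among 12897, with 100 genes changed at each fold. Beside these, 12 unchanged genes were called in skin and 16 in BMDM. The changed genes were drawn only from those with higher mean counts, and the simulated libraries held no batch difference. Recovery of low-count genes was thus not tested. Same-numbered WT and T166A BMDM libraries correlated at 0.201, 0.115 and 0.188 after removal of group means, each best with its own number. Batch was left in, and replicate 3 is the only B2 library of each genotype, so its match cannot be told apart from batch. The main BMDM fit holds batch and not the number, and a fit with the number as a block was run as an alternative. The rule for named genes took all members, the other family genes, the 2 genes per list with the smallest adjusted p in skin and the 2 most abundant, the 5 genes most like Ifi203 or the members' mean, and the most abundant marker per cell type. Of the genes this rule names, 1 is not reported here. Sequences are from RefSeq (promoters) and GENCODE (transcripts). Protein identity was not computed, since no protein table was used here.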

Additional observations from a re-analysis of the deposited data

Results flagged for a closer look

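Of 72 groups of 6 skin libraries examined for a single distant value (members, other family genes and the most abundant marker of each cell type among them), 1 had one: the adipocyte gene Cidec in WT skin replicate 1 was at 3.58 CPM, while the next WT library was at 2.15 CPM, a gap of 0.692 of the whole range. Chance gives about 1 such value in 20 groups.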

How the results depend on the processing

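The BMDM log2 fold changes of the members other than Aim2 kept their sign in the 16 alternatives, while the number called went from 1 to 2 with RLE size factors or batch B1 alone, 3 with the stricter filter, 4 with the length trend removed, 6 with no filter and 7 with DESeq2 or limma-voom, and to 0 with the replicate block, no batch term or summed transcripts. Leaving out 1 library gave 0 to 2. The cause was not tested. In skin the number called was 1 with no filter or summed transcripts and 0 to 2 without 1 library. With the replicate block 3 were called, Mndal joining (adjusted p = 0.000714 by edgeR), while no other member's skin call changed with it. Over all genes tested, same-numbered skin libraries correlated at -0.046 to 0.091, and only WT replicate 3 correlated best with its own number. The main fit therefore does not pair them. With the block, however, the SE of each member was lower (0.05 against 0.09 for Mndal), and 4549 genes were called against 4011. The labels give no pairing, so whether the skin numbers are pairs is not settled. The near-zero skin log2 fold change of Ifi211 was -0.06 to 0.01 without 1 library, above 0 without T166A replicate 5, and that of Ifi213 -0.1 to 0.05, above 0 without WT replicate 1 (0.05) or WT replicate 6 (0.03). Shared sequence limits Ifi205 and Ifi211, and low counts limit Ifi205 in BMDM.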
